A study of Mus musculus with 10 samples.

Results

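The 1000 strongest H3K27Ac peaks outside promoters were examined in explanted mouse retina. They were chosen by their signal after culture in high glucose: among peaks on the 19 autosomes that the deposited annotation does not call a promoter, the 1000 with the highest mean H3K27Ac at 25 mM glucose over 2 libraries were taken. They make up 1.11% of 89834 such peaks and 0.924% of all 108253 peaks. The libraries came from wild-type C57BL/6J retinas at postnatal day 28, freed of the pigment epithelium and kept for 48 hours in medium with 5 mM or 25 mM glucose, and 500000 dissociated cells entered each CUT&Tag assay. H3K18La was profiled in 3 libraries per glucose level and H3K27Ac in 2, and the labels place all of them in 1 batch. The study asked how glucose supply relates to H3K18La along the genome, with H3K27Ac as a well-known acetylation mark beside it. Explants are whole retinas without their blood supply and epithelium, and a lower signal from fewer cells of a type cannot be told apart from a lower signal per cell. The study's methods speak of biological replicates for the peak calls, but the labels do not say whether these replicates are separate animals or cultures, so p-values measure the spread between these libraries, which may be technical.

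Histone H3 is modified on lysines of its tail. H3K27Ac, acetylation of lysine 27, is a usual mark of active enhancers and promoters, and strong signal away from a start site is commonly used to find active enhancers. H3K18La, lactylation of lysine 18, uses lactate, the end product of glycolysis, and rods, the most abundant cells of the mouse retina, are known for fast aerobic glycolysis. In CUT&Tag a transposase is brought to the modified histone by an antibody, so that sequenced fragments mark where it lies. It is not certain which libraries the peak set was called from: its size equals that of a set the study merged from H3K18La peaks of developing retina, so sites with H3K27Ac alone may lie outside it.

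Windows of 200 bases from the middle of 8 members are shown, because the results below turn on these peaks: the strongest peak, the strongest peak at a gene of each of the lists of photoreceptor transcription factors (Mef2d), rod phototransduction (Grk1), outer segment (Prph2) and bipolar cells (Prkca), and 3 of the 5 largest H3K18La rises (E2f3, Ypel2, Bcl3). They are on the plus strand of GRCm38. Capitals mark each match, on either strand, to 1 of 9 short motifs: TAATCC (bound by CRX and OTX2), TGCTGA (part of the site of NRL and other MAF factors), CAGCTG (an E-box), CAGATG (another E-box), CACGTG (the E-box of MYC, USF and ChREBP), GGGCGG (SP and KLF factors), TGACTCA (AP-1), TGACCT (a single site of nuclear receptors) and GCCAAT (NFY).
Anp32a (chr9:62363635-62363834): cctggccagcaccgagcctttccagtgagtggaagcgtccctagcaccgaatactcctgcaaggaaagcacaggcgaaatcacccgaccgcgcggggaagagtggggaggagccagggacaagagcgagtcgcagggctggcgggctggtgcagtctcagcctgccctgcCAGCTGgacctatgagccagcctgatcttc
Mef2d (chr3:88147961-88148160): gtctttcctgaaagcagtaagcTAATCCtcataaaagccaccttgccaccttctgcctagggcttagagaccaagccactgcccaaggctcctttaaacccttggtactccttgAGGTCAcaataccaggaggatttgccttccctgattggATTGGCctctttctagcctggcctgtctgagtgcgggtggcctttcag
Grk1 (chr8:13405995-13406194): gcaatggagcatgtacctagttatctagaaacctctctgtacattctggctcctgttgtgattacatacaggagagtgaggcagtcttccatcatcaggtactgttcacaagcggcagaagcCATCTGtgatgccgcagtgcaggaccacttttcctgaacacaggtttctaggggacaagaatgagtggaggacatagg
Prph2 (chr17:46915071-46915270): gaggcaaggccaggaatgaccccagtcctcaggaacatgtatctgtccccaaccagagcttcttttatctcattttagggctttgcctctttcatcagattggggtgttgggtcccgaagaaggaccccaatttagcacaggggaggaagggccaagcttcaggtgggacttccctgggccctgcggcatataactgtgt
Prkca (chr11:108298173-108298372): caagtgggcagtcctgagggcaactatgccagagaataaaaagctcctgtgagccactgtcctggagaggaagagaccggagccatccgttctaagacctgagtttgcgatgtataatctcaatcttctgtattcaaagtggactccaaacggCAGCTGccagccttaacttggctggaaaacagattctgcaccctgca
E2f3 (chr13:29988128-29988327): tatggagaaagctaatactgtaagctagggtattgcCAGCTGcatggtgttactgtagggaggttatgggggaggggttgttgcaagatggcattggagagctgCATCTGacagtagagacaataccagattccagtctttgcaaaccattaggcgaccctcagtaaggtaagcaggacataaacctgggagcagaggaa
Ypel2 (chr11:86957246-86957445): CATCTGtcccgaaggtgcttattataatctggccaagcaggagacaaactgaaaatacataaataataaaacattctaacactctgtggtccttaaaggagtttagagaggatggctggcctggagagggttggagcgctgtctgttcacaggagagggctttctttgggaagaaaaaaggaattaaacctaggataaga
Bcl3 (chr7:19817430-19817629): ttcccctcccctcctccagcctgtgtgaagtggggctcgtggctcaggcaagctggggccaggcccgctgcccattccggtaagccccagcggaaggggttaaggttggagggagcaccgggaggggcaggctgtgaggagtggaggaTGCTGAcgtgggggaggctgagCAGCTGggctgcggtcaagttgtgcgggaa
The Mef2d window held 3 matches, to the CRX, nuclear receptor and NFY motifs, those at E2f3 and Bcl3 held 2 each, and the Prph2 window held 0.

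Across all 1000 members, the middle 300 bases were searched in the same way. TAATCC was found in 180 members, in 12.2% of the other autosomal non-promoter peaks and in 6.94% of autosomal promoter peaks. TGCTGA was found in 29.3%, 25.9% and 18.4% of the peaks, in that order. The SP and KLF box GGGCGG was found in 9.40% of members against 5.47% and 44.7%. The other motifs were within a few percentage points of the other non-promoter peaks, with CAGCTG in 22.4% of members, CAGATG in 24.9%, TGACCT in 23.7%, GCCAAT in 8.80%, TGACTCA in 5.10% and CACGTG in 36 members. Of the next 1000 peaks by rank, 18.9% held TAATCC. A match is a string of letters and not a bound site. Members had a median GC content of 51.3% (quartiles 48.3% and 54.0%), between the other non-promoter peaks (48.8%) and the promoter peaks (57.5%), and 6 of them were repeat-masked over more than 50% of their length, against 6.39% of the other non-promoter peaks.

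Most members lay inside genes. The annotation placed 659 in an intron, 394 of these in the first, 200 in distal intergenic sequence, 78 in an exon, 40 in a 3′ UTR, 19 in a 5′ UTR and 4 downstream of a gene. First introns held 39.4% of members and 18.7% of all autosomal non-promoter peaks, and distal intergenic sequence held 200 members, against 38.7% of all such peaks. The median distance to the start of the assigned transcript, which is not always the nearest start, was 15214 bp, against 35272 bp for the other non-promoter peaks. Members were wider, with a median of 1008.5 bp against 702 bp. The deposited label is not the last word on promoters, since 65 members (6.5%) overlapped a promoter window drawn around GENCODE M21 start sites, against 3.31% of all non-promoter peaks. They include those at Otx2, Nr2e3, Cabp4, Prkab1, Fam57b and Got1 below, and 1 each at Neurod1 (not the 5′ UTR peak), Fscn2 and Prom1.

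Signal by library is given in RPKM, reads scaled to peak length and library total. The H3K27Ac medians over members were 49.5 and 38.8 RPKM at 25 mM, and 10.3 and 17.9 RPKM at 5 mM. These values chose the members, so they are a description. Mean H3K27Ac at 25 mM ran from 35.9 to 110 RPKM, with a median of 43.6. The last 3 members by rank, at Got1, Map7 and Mad1l1, stood at 35.964, 35.951 and 35.936 RPKM, and the next peaks, at Gse1, Fscn2 and Sirpa, at 35.931, 35.920 and 35.917 RPKM. Replicate 1 at 25 mM exceeded replicate 2 at 919 members, and 913 and 852 members were also among the 1000 strongest by replicate 1 or replicate 2 alone. The median log2(RPKM + 0.5) difference between glucose levels was 1.71 over members and 0.58 over all peaks. Both 25 mM libraries exceeded both 5 mM libraries at 997 members, and at 53% of all peaks, but the choice by 25 mM signal favours this order. Ranked by 5 mM signal instead, 649 of the members would still be among the 1000 strongest non-promoter peaks.

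H3K18La, from separate libraries, was high at these peaks and higher in high glucose. At 5 mM the median over members was 3.95, 3.34 and 3.36 RPKM in the 3 libraries, and at 25 mM it was 20.1, 15.0 and 14.2 RPKM. Each 25 mM library lay well above each 5 mM library. Over the other non-promoter peaks the medians were 0.839, 0.896 and 0.805 RPKM at 5 mM and 1.57, 1.52 and 1.48 RPKM at 25 mM. The 1000 promoter peaks with the strongest H3K27Ac also had less H3K18La than the members in each library, with medians of 2.31, 1.94 and 1.89 RPKM and of 11.0, 6.72 and 5.99 RPKM. By these medians the members stood above the strongest promoters in H3K18La at both glucose levels.

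**Figure D1:**
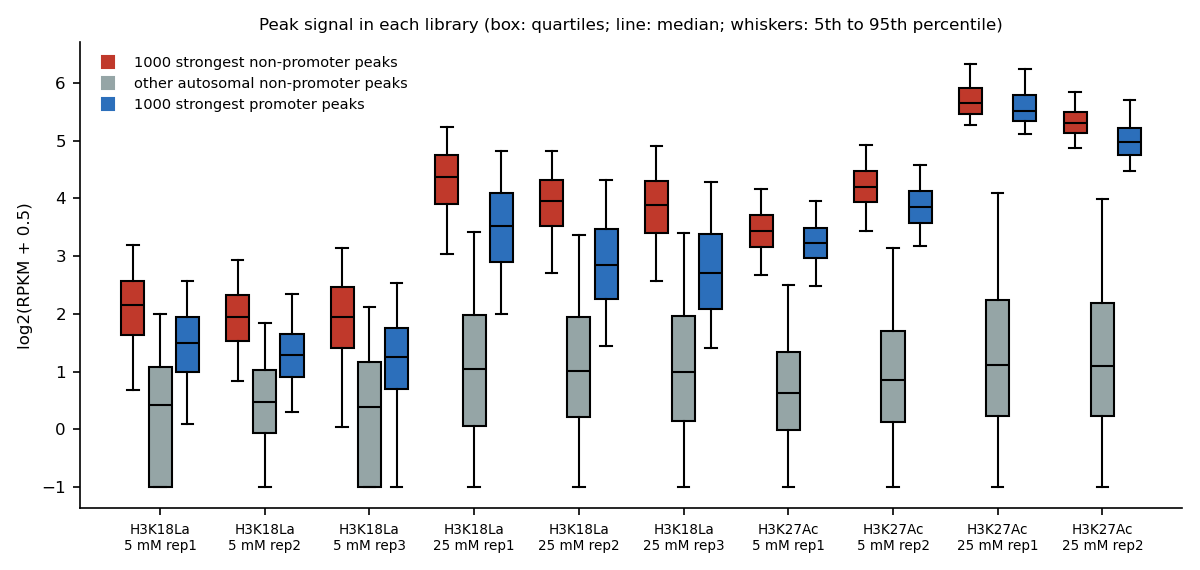
Signal on the log2(RPKM + 0.5) scale in each of the 10 libraries for the 1000 strongest non-promoter H3K27Ac peaks (red), the other autosomal non-promoter peaks (grey) and the 1000 strongest promoter peaks (blue). Boxes span the quartiles, lines are medians and whiskers reach the 5th and 95th percentiles. In H3K18La the red medians are 3.34 to 3.95 RPKM at 5 mM and 14.2 to 20.1 RPKM at 25 mM, above the blue medians in every library.

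The change in H3K18La was tested for every peak with limma. At an adjusted p of 0.05, 898 of the 1000 members (89.8%) rose at 25 mM, against 16.8% of all peaks. None fell, against 0.148% of all peaks, and the rest did not pass. The log2 fold change was above 0 at each of the 1000 members, from 0.09 to 3.45. It was also above 0 at each of the next 1000 peaks by rank and at 88797 of all 108253 peaks. Its median was 2.05 (quartiles 1.79 and 2.33), against 0.76 over all peaks, a difference of 1.29. Every 25 mM library exceeded every 5 mM library at 978 members (97.8%), against 36.6% of all peaks. Of the next 1000 peaks by H3K27Ac rank, 854 rose, with a median of 1.91, and of the 1000 strongest promoter peaks 678 rose, with a median of 1.75. At 28 members no 5 mM library held more than 3 reads, and with these set at the bound that 3 reads allow the median was 2.04.

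The share of each library that lay in peaks differed between the glucose levels. For H3K18La, 11.8% to 12.01% of the RPKM denominators were reads in peaks at 5 mM, and 31.2% to 35.0% at 25 mM. For H3K27Ac the shares were 21.1% and 31.5% against 69.5% and 56.5%. With each library scaled to its reads in peaks, the median of all peaks became -0.07 and that of members 0.71, and limma called 0 members and 0 of all peaks. In that fit 939 members kept a positive sign, and 450 had an unadjusted p under 0.05. Neither count was taken over all peaks, so neither has a background to be judged against. Centred on the median of all peaks, 616 members passed with a median of 1.42, against 3.87% of all peaks rising and an all-peak median of 0.13. Members held 3.89%, 3.34% and 3.51% of the reads in peaks at 5 mM (3.58% ± 0.280, SD, n = 3) and 6.87%, 5.59% and 5.46% at 25 mM (5.97% ± 0.783, SD, n = 3). The rise in that share, 2.39 percentage points, was larger than the spread between libraries, and every 25 mM library exceeded every 5 mM library. Without replicate 2 at 25 mM, 522 members passed, against 5.84% of all peaks rising. In all 6 fits that each left out 1 library, 508 members passed, against 4.78% of all peaks.

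H3K18La and its change followed the H3K27Ac rank down the whole list. Among ranks 1 to 100, 94.0% of peaks rose, and the library medians were 4.26 to 5.27 RPKM at 5 mM and 20.1 to 31.5 RPKM at 25 mM. Among the lower 500 members, 87.4% rose, with medians of 2.98 to 3.36 and 12.6 to 17.3 RPKM. Of the peaks after rank 10000 and up to rank 20000, 35.5% rose. Beyond rank 40000, 3.04% rose. There was no step at rank 1000. The median peak of the whole set held 1 to 5 reads in an H3K18La library, against 5 to 60 for the median member, and the part of depth in this gradient was not tested. Of the members, 413 (41.3%) were also among the 1000 strongest non-promoter peaks by H3K18La at 25 mM, and 232 (23.2%) by H3K18La at 5 mM. Nearly all, 957, were in the upper decile by H3K18La at 25 mM.

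**Figure D2:**
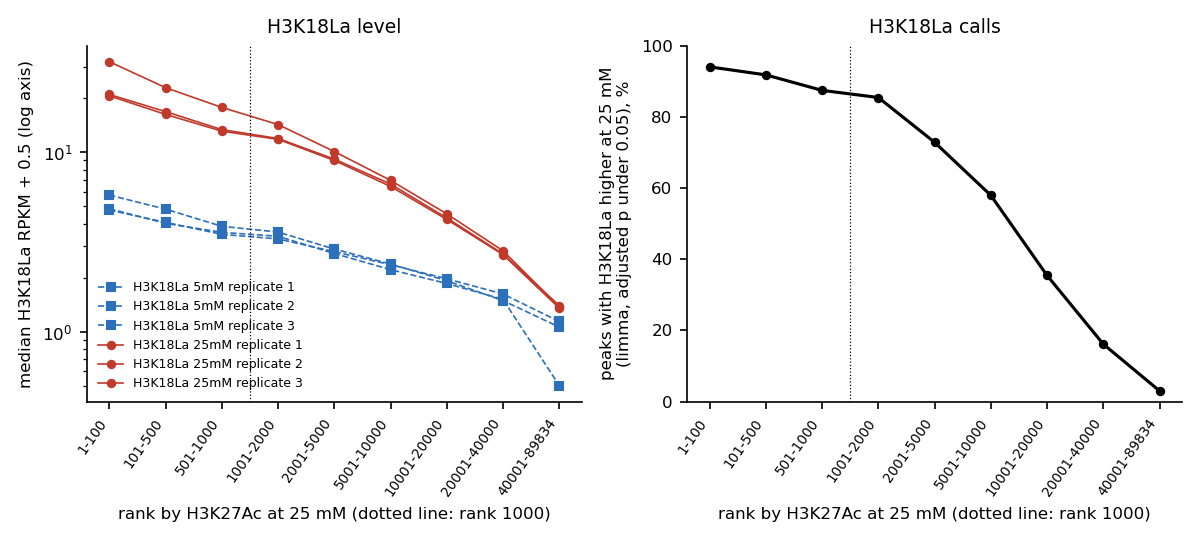
Left, median H3K18La (RPKM + 0.5, log axis) in bins of non-promoter peaks ranked by H3K27Ac at 25 mM, with 1 line per library (red, 25 mM; blue, 5 mM). Right, the percentage of peaks in each bin called higher in H3K18La by limma, which goes from 94.0% in ranks 1 to 100 to 3.04% beyond rank 40000; the dotted line marks rank 1000.

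By distance, between 1000 and 5000 bp from the assigned start site, 194 of 239 members (81.2%) rose, against 89.8% of all members and 16.8% of all peaks, with a median H3K18La of 13.2 RPKM at 25 mM. From 20000 to 100000 bp away, 311 of 333 (93.4%) rose, with a median of 18.5 RPKM. Beyond 100000 bp, 96 of 103 (93.2%) rose, with a median of 19.7 RPKM. By annotation, distal intergenic members had a median of 18.3 RPKM (184 of 200 rising), intronic members 16.7 RPKM (592 of 659) and exonic members 12.3 RPKM (64 of 78). The median H3K27Ac at 25 mM of these 6 classes was 43.0 to 44.0 RPKM. Differences between the position classes, and between gene lists and all members, were not tested.

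**Figure D3:**
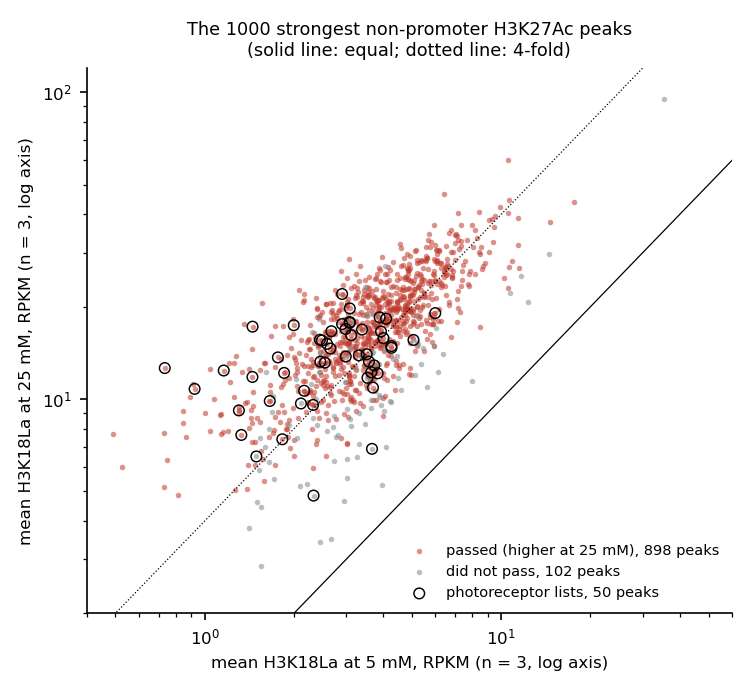
Mean H3K18La at 5 mM and at 25 mM (RPKM, log axes, n = 3 libraries each) at the 1000 strongest non-promoter H3K27Ac peaks, with 898 that passed in red and the rest in grey. Circles mark the 50 peaks at photoreceptor genes, and 673 of the 1000 peaks lie on or above the dotted 4-fold line.

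The strongest peak of all was in the first intron of Anp32a, whose product binds histones and inhibits their acetylation, at chr9:62363535-62363935 (window above). Its H3K27Ac was 131 and 88.7 RPKM at 25 mM and 24.8 and 33.3 RPKM at 5 mM. Its H3K18La was 5.91, 6.26 and 0 RPKM at 5 mM and 35.5, 19.0 and 26.9 RPKM at 25 mM. The groups did not overlap, but the log2 fold change of 3.27 (SE 0.99) did not pass (limma adjusted p = 0.0677), and it passed without the 5 mM library that held 0 reads (0.0186). Rd3, which encodes an inhibitor of the photoreceptor guanylate cyclases, held the peaks of rank 2 and rank 9, both in its first intron. At the first, chr1:191980766-191981930, H3K18La was 4.48, 6.13 and 5.06 RPKM at 5 mM and 37.6, 22.6 and 17.1 RPKM at 25 mM, which passed at 2.13 on the log2 scale (SE 0.33, limma adjusted p = 0.00904). At the other, chr1:191978932-191979545, the fold change was 2.93 (SE 0.41, limma adjusted p = 0.00739).

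The rest of the 10 strongest were at Sntg2, a syntrophin, Gm24826, Btg2, an antiproliferative immediate early gene, Map7, a microtubule-binding protein, Ncam1, the neural cell adhesion molecule, Gm13066 and Plch2, a phospholipase C. All but Anp32a and Gm24826 passed, with log2 fold changes from 1.98 to 3.16, and each of these passed in 4 to 6 of the 6 fits that left out 1 library. The Gm24826 peak (chr1:39499129-39500332), whose nearest protein-coding start site is that of Tbc1d8, had the most H3K18La of any member. It stood at 41.7, 29.8 and 34.9 RPKM at 5 mM, and its 25 mM libraries ranged from 81.1 to 114 RPKM around a mean of 94.9 RPKM. Already at 5 mM this peak exceeded the 25 mM mean of most members, and its fold change of 1.41 (SE 0.45) did not pass (limma adjusted p = 0.0775) and became -0.03 with scaling to reads in peaks. The others with the most H3K18La at 25 mM were at Ncam1 (60.3 ± 11.4 RPKM, SD, n = 3), Gm6117, Med13l, of the Mediator complex, and Myof, myoferlin, and all 4 passed. Ncam1 and Med13l passed in 5 of the 6 fits that left out 1 library and Gm6117 in 2. Myof passed in 0 of 6 (limma adjusted p = 0.0513 to 0.252) and its log2 fold change of 1.28 became -0.14 with scaling to reads in peaks. The least H3K18La was at Rtbdn, encoding the riboflavin-binding retbindin of photoreceptors, Fam57b and Mtf1, a metal-responsive factor. Rtbdn had 4.29, 1.05 and 2.67 RPKM at 5 mM and 3.69, 3.12 and 3.66 RPKM at 25 mM, so the groups overlapped, as they did at the other two. Even the lowest member, at Mtf1, had a 25 mM mean of 2.85 RPKM, above the median of 1.52 RPKM over the other non-promoter peaks.

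The largest H3K18La rises among members that passed with separated groups were at Neurod1, E2f3, Ypel2, Gm30593 and Bcl3. Neurod1, a bHLH factor needed by photoreceptors, had its peak in the 5′ UTR at chr2:79454889-79455454. H3K18La there was 0.838, 1.36 and 0 RPKM at 5 mM (1, 4 and 0 reads) and 21.6, 9.13 and 7.15 RPKM at 25 mM (24, 21 and 12 reads), a rise of 3.45 on the log2 scale (SE 0.60, limma adjusted p = 0.0127). It passed in 5 of the 6 fits that left out 1 library. Bcl3, a co-regulator of NF-kappaB, went from 2.24, 1.59 and 0.868 RPKM to 31.8, 18.6 and 11.5 RPKM in its second intron (3.29, SE 0.43, limma adjusted p = 0.00655) and passed in all 6. E2f3, a cell cycle factor, went from 0, 4.52 and 1.92 RPKM to 33.1, 16.0 and 13.2 RPKM (3.43, SE 0.83, limma adjusted p = 0.0351). E2f3, Ypel2 and Gm30593 each passed in 2 of the 6 fits. With 0 to 12 reads per library at 5 mM, the sizes of these rises are imprecise.

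**Figure D4:**
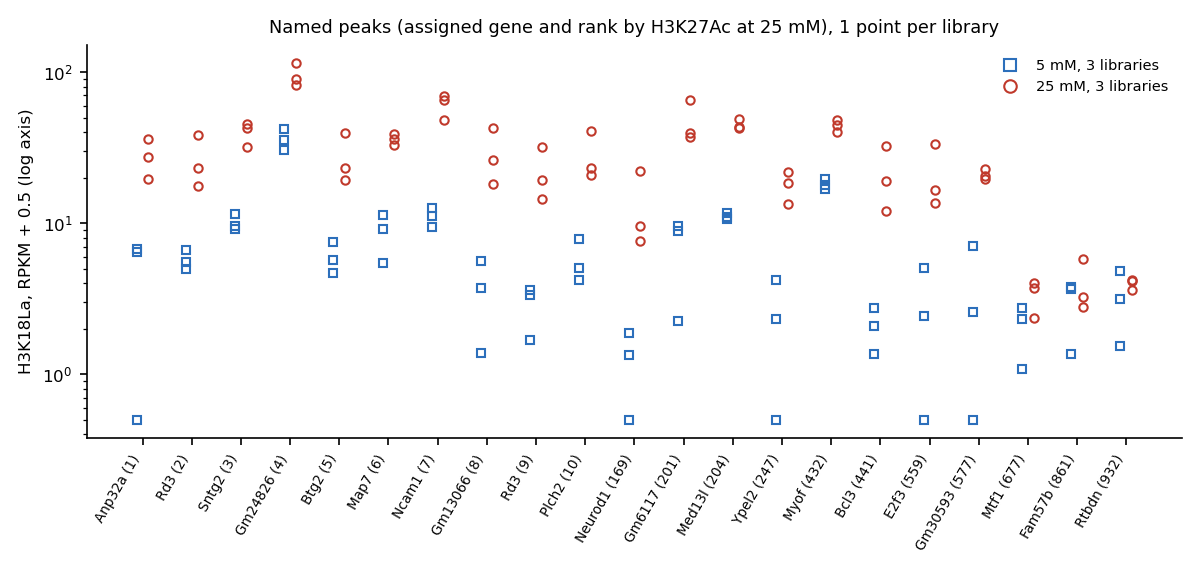
H3K18La (RPKM + 0.5, log axis) in each library at the 10 strongest members, the 5 largest rises and the members with the most and the least H3K18La at 25 mM, labelled by assigned gene and H3K27Ac rank. Each point is 1 library (squares, 5 mM; circles, 25 mM); the groups are apart at all but Mtf1, Fam57b and Rtbdn.

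The members were assigned to 654 genes, of which 457 held 1 member and 76 held 3 or more. The counts below stand beside 89.8% of all members and 16.8% of all peaks rising. Gse1 and Ppargc1b held the most members, 8 each, of 100 and 34 autosomal non-promoter peaks assigned to them. Those of Gse1 all rose, by log2 fold changes of 1.82 to 2.87. Ppargc1b, a coactivator of mitochondrial genes, held its 8 members within 18.7 kb, all rising, whose H3K18La reached 9.92 to 25.6 RPKM at 25 mM. The nearest protein-coding start site of that group was that of Pde6a, the alpha subunit of the rod cGMP phosphodiesterase. Map7 held 7 (of 24 such peaks), all rising, and Ptp4a3, a tyrosine phosphatase, held 7 (of 11), of which 5 rose. Casz1, Esrrb, Fgfr2 and Gdpd5 held 6 each (of 41, 55, 197 and 20), of which 6, 6, 5 and 6 rose. Sec14l1 and Usp2 also held 6 each (of 11 and 8). Counts of members were not scaled to the number of peaks assigned to a gene. Without replicate 2 at 25 mM, the members that passed fell in number to 5 at Gse1 and to 3 each at Ppargc1b, Map7, Fgfr2 and Gdpd5. Without replicate 2 at 5 mM, 3 members each passed at Ptp4a3, Casz1 and Gdpd5. Counts of 3 were also left at Casz1 without replicate 1 at 5 mM, at Ptp4a3 without replicate 1 or 3 at 25 mM and at Fgfr2 without replicate 3 at 25 mM. The members assigned to Fgfr2 were spread over 2381 kb, and their nearest protein-coding start sites were those of Fam53b, Ctbp2 and Tacc2. Gdpd5, a glycerophosphodiesterase, had 5 of its members within 13.4 kb, at 22.9 to 30.2 RPKM.

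Members were set against lists of retinal genes, by the gene to which each peak is assigned. Photoreceptor genes held most of the members at named retinal genes. Of 272 autosomal non-promoter peaks at 15 photoreceptor transcription factors, 23 (8.46%) were members, compared with 1.11% of all such peaks. For rod phototransduction it was 10 of 114 (8.77%), for outer segment, matrix and cilium genes 17 of 85 (20%) and for the ribbon synapse 6 of 98 (6.12%). Bipolar, amacrine and ganglion cell lists held 1 member each, of 94, 67 and 77 peaks (1.06%, 1.49% and 1.30%), near the share of all such peaks. The lists for Muller glia (104 peaks), cones (16), horizontal cells (8), microglia (21), vessels and astrocytes (24) and pigment epithelium (16) held 0. Lists of this size are too small to set 0 members apart from a share of 1.11%. As a check of the tissue, the median promoter H3K27Ac at 25 mM was 39.1 to 45.2 RPKM for the first 3 lists and 0.951 to 6.10 RPKM for those of cones and of the other cell types. Some of the lower medians rest on few genes. A promoter peak was present for 1 of 4 horizontal cell, 1 of 10 microglia, 2 of 8 vessel and astrocyte and 3 of 8 pigment epithelium genes. These values come from the libraries that chose the members.

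**Figure D5:**
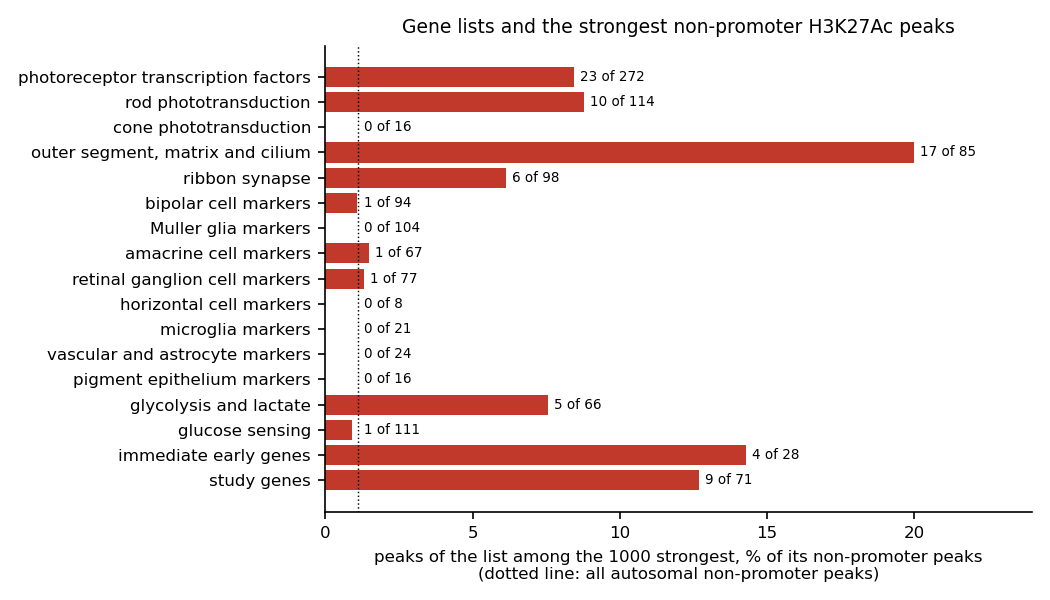
Percentage of each list's autosomal non-promoter peaks that are among the 1000 strongest in H3K27Ac at 25 mM, with the counts beside the bars and the share over all such peaks, 1.11%, as a dotted line. The outer segment list reaches 20%, and 6 lists of other retinal and non-neuronal cells and of cones stand at 0. Those lists hold 8 to 104 peaks, too few to set 0 apart from 1.11%.

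Among the photoreceptor transcription factors, 22 of 23 members rose in H3K18La, with a median log2 fold change of 2.30, against 89.8% of all members (median 2.05) and 16.8% of all peaks (median 0.76), and 12 passed in all 6 fits that left out 1 library. They lay at Casz1 and Esrrb (6 each), Mef2d (5), Neurod1 (2), Nrl, Otx2, Rax and Nr2e3. The strongest, in the first intron of Mef2d, a factor that acts with CRX in photoreceptors, lay at chr3:88147494-88148629 and held TAATCC in the window above. H3K18La there was 1.67, 2.38 and 1.94 RPKM at 5 mM and 29.6, 12.6 and 10.1 RPKM at 25 mM, a rise of 2.70 on the log2 scale (SE 0.40, limma adjusted p = 0.00858). The peak of Otx2, a homeobox factor upstream of photoreceptor fate, had 1.06, 1.72 and 0 RPKM at 5 mM and 12.5, 13.1 and 6.76 RPKM at 25 mM. That of Nrl, the rod-determining factor, had 1.03, 2.52 and 0.800 RPKM and 18.2, 9.09 and 8.06 RPKM. In both the groups were apart, and both passed (limma adjusted p = 0.0147 and 0.0106). The member that did not pass was at Nr2e3, a nuclear receptor that represses cone genes in rods, with 2.47, 0.671 and 3.84 RPKM at 5 mM and 6.19, 5.99 and 2.35 RPKM at 25 mM, which overlapped.

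In rod phototransduction 8 of 10 members (80%) rose, against 89.8% of all members and 16.8% of all peaks, with a median of 1.86, and 2 of them, at Slc24a1 and Pde6b, passed in all 6 of those fits. The strongest was in the first intron of Grk1, rhodopsin kinase (chr8:13405871-13406320), at 8.43, 3.00 and 6.55 RPKM at 5 mM and 23.7, 16.9 and 16.5 RPKM at 25 mM. Its log2 fold change was 1.68 (SE 0.38, limma adjusted p = 0.0291), and it passed only without replicate 1 at 5 mM (0.0329). Slc24a1, the rod exchanger of sodium, calcium and potassium, held 2 members (2.19 and 3.27). Rdh8, a retinol dehydrogenase, Guca1b, an activator of guanylate cyclase, Gnb5, a G protein subunit, Abca4, the retinoid flippase, and Pde6b, a phosphodiesterase subunit, rose by 1.45 to 1.93. Sag, arrestin, and Rcvrn, recoverin, did not pass (0.86 and 2.39, limma adjusted p = 0.189 and 0.0893).

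Among outer segment, matrix and cilium genes 11 of 17 members (64.7%) rose, against 89.8% of all members and 16.8% of all peaks, with a median of 2.27, and 8 passed in all 6 fits. The strongest, in the first intron of Prph2, which shapes the disc rim (chr17:46914896-46915447), had 8.59, 1.75 and 1.33 RPKM at 5 mM and 31.3, 14.3 and 9.77 RPKM at 25 mM. The groups were apart, yet the fold change of 2.34 (SE 0.69) did not pass (limma adjusted p = 0.0636), and it passed without replicate 1 at 5 mM (0.0240). The list's other members were at Aipl1, Fscn2, Mak, Prom1, Rbp3, Reep6, Rp1, Rp1l1 and Tulp1. Prom1, a protein of nascent discs, rose at 3 of 3 and Tulp1 at 2 of 2, whereas neither of the members at Rbp3, the interphotoreceptor retinoid-binding protein, passed. At the ribbon synapse 4 of 6 (66.7%) rose, against the same 89.8% and 16.8%, at Lrit1, Elfn1 and Cplx4, and those at Dlg4 and Cabp4 did not pass. The strongest, in an exon of Lrit1, had 6.42, 3.05 and 8.31 RPKM at 5 mM and 14.9, 14.4 and 15.2 RPKM at 25 mM (1.36, SE 0.35, limma adjusted p = 0.0430). It passed only without replicate 3 at 5 mM (0.0296), and its fold change became -0.01 with scaling to reads in peaks.

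In the bipolar cell list, Prkca, the kinase that marks rod bipolar cells, held a member in its second intron (chr11:108297878-108298669, window above). The libraries are of whole retina, so the cells that carry the signal at this peak and those below are not known. H3K18La was 5.39, 7.55 and 6.51 RPKM at 5 mM and 33.4, 25.2 and 22.1 RPKM at 25 mM (1.96, SE 0.26, limma adjusted p = 0.00671). The member of the amacrine cell list, at the glycine transporter gene Slc6a9, went from 1.83, 4.46 and 2.84 RPKM to 24.5, 20.9 and 18.2 RPKM (2.67, SE 0.31, limma adjusted p = 0.00643). The member of the ganglion cell list, at Ebf3, went from 5.35, 6.67 and 8.86 RPKM to 39.8, 32.5 and 30.7 RPKM (2.24, SE 0.27, limma adjusted p = 0.00643). All 3 passed in each of the 6 fits. Glycolysis and lactate genes held 5 members of 66 peaks (7.58%), at Hk1, hexokinase, Slc2a1, the glucose transporter GLUT1, and Pkm, pyruvate kinase, and all 5 rose, with a median of 2.31, where 89.8% of all members and 16.8% of all peaks rose (medians 2.05 and 0.76). Of these, 3 passed in all 6 fits, and Pkm passed in 2 of them. The strongest, in the fourth intron of Hk1 (chr10:62299669-62301159), had 6.04, 4.01 and 4.44 RPKM at 5 mM and 33.4, 22.8 and 17.6 RPKM at 25 mM. It rose by 2.21 (SE 0.30, limma adjusted p = 0.00712) and passed in all 6 fits. Of 111 peaks at glucose-sensing genes 1 (0.901%) was a member, at Prkab1, an AMPK subunit. It went from 4.12, 3.91 and 4.27 RPKM to 17.7, 14.3 and 6.84 RPKM, a rise of 1.45 (SE 0.35, limma adjusted p = 0.0354), and passed in only 1 of the 6 fits. The list of immediate early genes, which leaves out Btg2, held 4 members of 28 peaks (14.3%), at Fos and Nr4a1. Of these 3 rose, against the same shares, and 1 passed in all 6 fits. Fos and the second Nr4a1 peak each passed in 1 of the 6. The strongest, in the 5′ UTR of Nr4a1, an orphan nuclear receptor, went from 1.94, 2.71 and 2.59 RPKM to 20.9, 13.7 and 10.5 RPKM (2.37, SE 0.29, limma adjusted p = 0.00645) and passed in all 6 fits. The 9 genes that the study named among those rising in expression at 25 mM held 9 members of 71 peaks, at Casz1, Neurod1 and Rp1. All 9 members rose, again beside 89.8% of all members and 16.8% of all peaks. Of these, 4 passed in all 6 fits and 1 at Casz1 in 0 of 6 (limma adjusted p = 0.0600 to 0.107). The same peaks are already counted above, those at Casz1 and Neurod1 among the photoreceptor transcription factors and that at Rp1 among the outer segment genes. The study chose this list by RNA-seq of such explants and compared it with its explant CUT&Tag results, so the list is not separate support.

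The promoters of the same genes were examined next. A promoter peak was present for 561 of the 654 genes (85.8%). At those promoters 373 of 561 (66.5%) rose in H3K18La, with a median log2 fold change of 1.70 and median levels of 1.83 RPKM at 5 mM and 7.07 RPKM at 25 mM. Among promoters of genes without a member 14.6% rose, with a median of 0.86. Of 884 members whose gene had a promoter peak, 756 (85.5%) had more H3K18La at 25 mM than that promoter, and the median ratio of the levels was 2.03. The choice by H3K27Ac favours this order, since 82.5% of the same members also had more H3K27Ac at 25 mM than that promoter. Within these pairs the fold changes of member and promoter had a Spearman correlation of 0.08 (n = 884 pairs, some sharing a promoter).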

How the data were processed

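Per the study's methods, the authors aligned CUT&Tag reads to GRCm38 with nf-core/cutandrun, called peaks with MACS, annotated them with ChIPseeker (Ensembl gene models, promoter from 1000 bp before to 500 bp after a start site), counted reads with csaw and deposited RPKM values, 1 per peak and library. Whether csaw's window-based factors enter the RPKM denominators is not given in the sources used here. The deposited values were whole multiples of 1 read (100% within 0.01), so reads were recovered, and the denominators ran from 1358008 to 7424470 reads. A second deposited file holds the authors' H3K18La fold changes and p-values and was not used.

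H3K18La was tested with limma 3.58.1 in R 4.3.3 (eBayes with a trend) on log2(RPKM + 0.5) over all 108253 peaks, two-sided, with Benjamini-Hochberg adjustment and a threshold of 0.05, in place of the study's count model because the unit is RPKM. This scale understates the change of weak peaks. The fit was tested on simulated data with few changed peaks: it recovered the direction of nearly all changes but called none of them, so a peak that did not pass is not shown to be unchanged. H3K27Ac was not tested, because its 25 mM values chose the members. Members, gene lists and motifs were chosen with earlier results of these data known. The text names the 10 strongest members, the 5 largest rises with separated groups (a matching rule for falls found 0), the 5 highest and 3 lowest in H3K18La, the 8 genes with the most members (ties by alphabet), every list gene with a member and the strongest member of each list, with values, and ranks 998 to 1003. Sequence came from the RefSeq GRCm38.p6 genome. Windows on chromosome 18 and in untranslated regions were not printed. Peak annotation is the authors', and assignment to a gene says nothing of contact. For 88 members a protein-coding start site of another gene (GENCODE M21) was nearer than the assigned one. Genes of lists were matched by symbol. Python 3.11.15 with pandas 2.3.3 was used. Counting error alone is covered by read numbers, since fragments carried no molecular identifiers. Other settings tried were a pseudocount of 0.1 or 1, leaving out peaks under 1 RPKM, other scalings, voom, robust moderation, a replicate block, a threshold of 0.01, leaving out each library and other ways to choose members.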

Additional observations from a re-analysis of the deposited data

How the results depend on the processing

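The share of members rising in H3K18La, 89.8% against 16.8% of all peaks, was 0% against 0% with libraries scaled to reads in peaks and 54.4% against 4.78% at a threshold of 0.01. It was 52.2% to 87.3% against 5.84% to 14.8% when 1 library was left out, lowest without replicate 2 at 25 mM. The share of all peaks also rose, to 37.3% among peaks of at least 1 RPKM (members 97.7%) and to 25.6% with voom (members 97.9%). The median log2 fold change of 2.05 became 1.42 after centring on the all-peak median and 0.71 with scaling to reads in peaks, and ran from 1.92 to 2.14 without 1 library. The rise of 2.39 percentage points in the share of reads was 1.41 for the strongest 500 peaks, 3.85 for 2000, 1.68 for peaks chosen at 5 mM, 1.74 for distal intergenic peaks and 1.94 to 2.65 without 1 library. The H3K27Ac difference of 1.71 became 1.27 after centring on the all-peak median, 0.43 with scaling to reads in peaks and 1.30 to 2.08 without 1 library. Other alternatives moved the share of members rising to between 61.6% and 97.9%. No alternative turned a direction of these 4 results. The causes were not tested.

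Same-numbered H3K18La libraries deviated from their group means with correlations of 0.0101 to 0.0238, so the numbers were not taken to pair the samples. With a replicate block 82.7% of members rose, against 10.3% of all peaks, and among the named peaks those at E2f3, Gm30593, Myof, Lrit1, Prkab1, Rdh8 and Gnb5 and some of those at Mef2d, Nr4a1, Gdpd5, Map7, Ppargc1b and Ptp4a3 no longer passed, whereas the strongest at Prph2 and that at Rcvrn now did. Over 17 alternatives Neurod1 passed in 14, E2f3 in 9, Ypel2 in 10, Gm30593 in 8 and Bcl3 in 16, and each kept its direction. The pairs of replicates had chi-squares per degree of freedom of 1.04 to 1.06 at 5 mM and of 1.14 to 1.84 at 25 mM, and averaging replicates 2 and 3 at 5 mM, an alternative chosen after seeing the data, left 87.0% of members rising. Leaving out members in GENCODE M21 promoter windows, or those mostly repeat-masked, was also chosen after seeing the data and gave 90.7% and 89.9%. Depth limits single peaks: the median member held 5 to 17 reads in a 5 mM H3K18La library, and 611 to 965 members held more than 3.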

Other observations

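Further groups of neighbouring members were seen after their values were known. Beside Mir182 and Rncr4, the locus of a microRNA abundant in photoreceptors, 5 members lay within 17.7 kb. All 5 rose in H3K18La (limma, adjusted p under 0.05), with a median log2 fold change of 2.41 and 25 mM means of 10.2 to 20.9 RPKM. Near Gm45217, with the taurine transporter gene Slc6a6 as the nearest protein-coding start site, 5 members within 15.8 kb all rose (median 2.05) and reached 17.3 to 38.2 RPKM. At Mbnl2, a splicing regulator, 5 members within 12.2 kb all rose (median 2.01), at 20.8 to 26.1 RPKM. At Usp2, a deubiquitinase, 6 members within 18.2 kb all rose (median 1.79), at 8.68 to 12.2 RPKM. At Nfasc, neurofascin, 4 of 5 members rose. Of all members 89.8% rose, with a median of 2.05, and of all peaks 16.8%.

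By quartile of GC content, from the lowest (37.1% to 48.2%) to the highest (54.1% to 70.0%), median H3K18La at 25 mM was 17.4, 17.5, 17.0 and 14.8 RPKM, and 236, 223, 226 and 213 of 250 members rose. The median log2 fold changes were 2.17, 2.05, 2.03 and 1.96. Members with and without TAATCC had median fold changes of 2.12 and 2.04. These differences were not tested.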
